A study of Homo sapiens with 11 samples.

Results

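Retinoic acid binding proteins and receptors were followed on expression arrays of SK-N-BE(2)-C cells, a human neuroblastoma line with amplified MYCN, under vorinostat and its solvent DMSO. The set was 8 genes given by symbol: CRABP1 and CRABP2 (cellular retinoic acid binding proteins), RARA, RARB and RARG (retinoic acid receptors), RXRA and RXRB (retinoid X receptors) and DHRS3 (a retinal reductase). The set was chosen by the 24 h values of these same arrays, in which CRABP2 had one of the largest rises, so that all 24 h values of the set are given as a description with no test. Probes of 7 of the 8 genes are on the arrays, 11 probes in all, of 30113 probes with 1 gene symbol for 20046 genes. CRABP1 has no probe in the annotation used and was not analysed here. A probe is the sequence on a bead that captures 1 transcript, and its intensity is given as log2 after quantile normalization, which gives all arrays the same distribution. Of the 11 probes 4, 1 each for CRABP2, RARA, RXRA and RXRB, were above background throughout 1 group or more and so were among the 17052 probes tested (10323 genes).

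Cells were given 500 nM vorinostat for 24 h (3 arrays), DMSO for 24 h (3 arrays), 500 nM vorinostat for 6 d (2 arrays) or DMSO for 6 d (3 arrays). Vorinostat is a broad-spectrum inhibitor of histone deacetylases, enzymes that remove acetyl groups from histones. The study's methods describe independent experiments for the 24 h treatment, and for 6 d the labels say only that the arrays are replicates, so that p-values measure the spread between these arrays. All values come from 1 cell line. At 24 h the vorinostat arrays lay on 1 BeadChip and the DMSO arrays on another, and the effects of chip and treatment cannot be told apart there. All arrays of 6 d lay on another single chip, so that chip does not differ between the groups compared there, whereas time and chip cannot be told apart.

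Retinoic acid is made from vitamin A and acts inside cells as a ligand of nuclear receptors. CRABP2 carries it to the nucleus, where a RAR and an RXR bound as a pair to direct repeats of a short DNA half-site turn target genes on when the ligand is present. Without ligand the pair holds a corepressor complex that contains histone deacetylases. Retinoic acid drives neuroblastoma cells to differentiate and is used in the treatment of the disease. RARB and DHRS3 are known targets of the receptors.

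The stretches of DNA upstream of the members were taken from RefSeq (GRCh38.p14), as 250 bases before each annotated start, 17 windows over the 8 genes. The half-site in its form AGGTCA and in the variant forms spelled AGTTCA, then GGGTCA, and lastly GGTTCA, its direct repeats with 1, 2 or 5 bases between, and the GC box GGGCGG were searched on both strands. Half-sites within a direct repeat were also counted as half-sites, and GC boxes that share bases were each counted. The CRABP2 window is shown because this gene had the largest difference in the set. The RARB repeat was the only direct repeat in the 17 windows. The first RXRA window held the most GC boxes when those that share bases are each counted. Capitals mark half-sites and GC boxes, and in RARB the repeat.
CRABP2, chr1:156705785-156706034, minus strand: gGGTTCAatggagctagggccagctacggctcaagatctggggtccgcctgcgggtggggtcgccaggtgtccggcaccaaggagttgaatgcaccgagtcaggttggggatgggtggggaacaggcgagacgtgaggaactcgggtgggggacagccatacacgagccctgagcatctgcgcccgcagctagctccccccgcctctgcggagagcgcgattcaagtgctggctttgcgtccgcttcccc
RARB, chr3:25428204-25428232, plus strand: gggtagGGTTCAccgaaAGTTCActcgca
RXRA, chr9:134326205-134326454, plus strand: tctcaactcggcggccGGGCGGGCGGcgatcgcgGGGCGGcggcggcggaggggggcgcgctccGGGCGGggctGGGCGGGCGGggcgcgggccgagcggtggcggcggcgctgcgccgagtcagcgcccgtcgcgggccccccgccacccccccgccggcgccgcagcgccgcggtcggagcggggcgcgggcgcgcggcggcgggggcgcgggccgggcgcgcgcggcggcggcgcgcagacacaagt
The CRABP2 window had 1 half-site, 249 to 244 bases before the start, no direct repeat and no GC box. A half-site was present in 33.8% and a GC box in 42.6% of 35116 windows of the same length before all annotated starts. The RARB repeat, with 5 bases between its half-sites, lay 53 to 37 bases before 1 of the 4 RARB starts, and 0.074% of all windows held such a repeat. The RXRA window had 6 GC boxes by this count and a GC content of 89.2%, against a median of 58% over all windows and 65.6% for CRABP2. Its boxes 234 to 229 and 230 to 225 bases before the start share bases, as do those at 176 to 171 and 172 to 167. Its lead in GC boxes thus rests on counting overlaps. Elsewhere the RARA windows held 1, 5 and 3 GC boxes and the single RARG window 5. These matches describe letters in the windows and carry no measurement of binding.

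Arrays differed in brightness before normalization, and this moved with the groups. The mean intensity was 401 to 413 on vorinostat arrays of 24 h, against 272 to 302 on DMSO arrays of 24 h. It was 283 and 338 on vorinostat arrays of 6 d, against 323 to 383 on DMSO arrays of 6 d. Between 15947 and 18696 probes per array were above background, and replicates had r of 0.98 to 0.993 across probes. Among neuroblastoma markers with an annotated probe, all 10 were measured, against 3 of 10 mesenchymal and Schwann-like markers and 1 of 7 blood and endothelial markers. In bulk RNA, fewer cells of a kind and less RNA per cell cannot be told apart.

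CRABP2 was far higher with vorinostat at 24 h, and at 6 d its vorinostat arrays lay below the DMSO arrays without passing the test. On the vorinostat arrays of 24 h its log2 intensity was 9.56, 9.59 and 9.64, against 6.45, 6.63 and 7.63 on the DMSO arrays of 24 h. The means were 9.60 ± 0.04 with vorinostat and 6.90 ± 0.64 with DMSO (SD, n = 3 each), a difference of 2.69 on the log2 scale (SE 0.23), or 6.46-fold. The arrays did not overlap, the vorinostat arrays lay close together, and DMSO replicate 3 stood above the other DMSO arrays. In order of rise the gene was 9 of 10323 genes and its probe 10 of 17052 probes. Of all probes 13.5% were called higher and 9.41% lower at 24 h. No call is given for the members there, because the CRABP2 difference chose the set. Without DMSO replicate 3 the difference was 3.05.

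At 6 d the CRABP2 intensities were 9.07 and 9.44 with vorinostat, against 9.86, 10.22 and 9.69 with DMSO. Both vorinostat arrays lay below all DMSO arrays. The difference was -0.67 (SE 0.25, 95% interval -1.20 to -0.13), or 1.59-fold higher in DMSO cells, with means of 9.26 ± 0.26 in 2 vorinostat arrays and 9.92 ± 0.27 in 3 DMSO arrays (SD). In limma, a linear model with a spread shared across probes, the adjusted p over all 17052 probes was 0.117, so that the difference did not pass the threshold of 0.05. Of the arrays left out in turn, only DMSO 24 h replicate 3, which enters the shared spread, changed this call (adjusted p 0.0175 in limma). Without vorinostat 6 d replicate 2, which leaves a single vorinostat array, the difference was -0.48. With scaling by array medians, which leaves array brightness largely in place, the 6 d difference was -0.98, with an adjusted p of 0.00791.

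**Figure D1:**
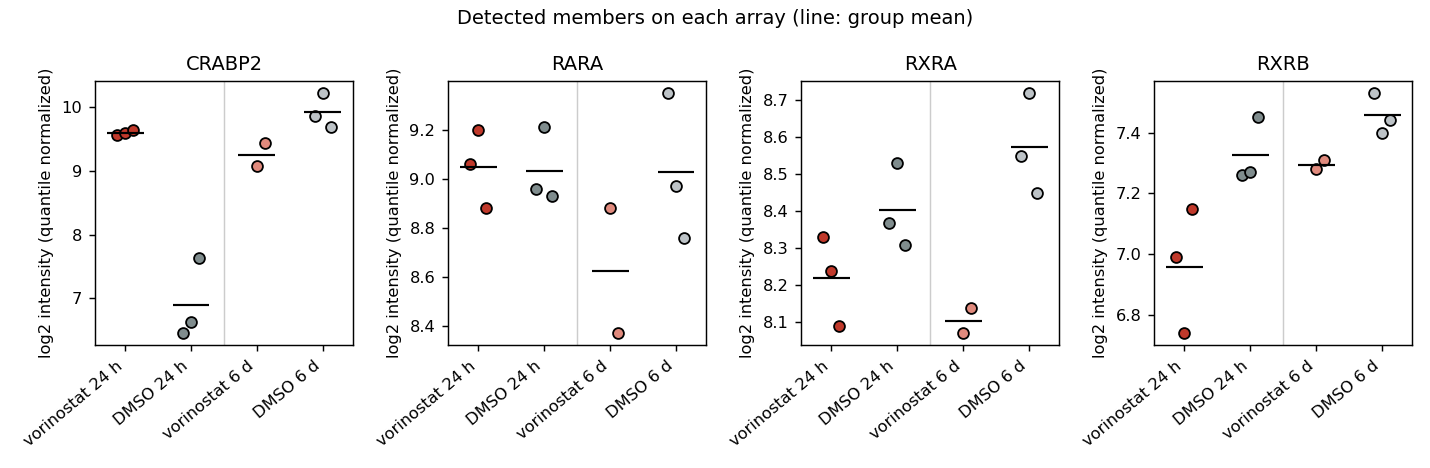
Log2 intensity (quantile normalized) of CRABP2, RARA, RXRA and RXRB on each of the 11 arrays in the 4 groups, with a line at each group mean and a scale of its own in each panel. CRABP2 spans 6.45 to 10.22, whereas each receptor stays within 1 unit, and at 6 d the vorinostat arrays of CRABP2, RXRA and RXRB lie below all DMSO arrays.

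The low DMSO level at 24 h was the exception among the 4 groups for CRABP2. DMSO cells of 6 d were 3.02 higher on the log2 scale than DMSO cells of 24 h (SE 0.23, 8.11-fold). Vorinostat cells of 6 d were lower than those of 24 h by a log2 difference of -0.34 (SE 0.25). In order of the group means, DMSO 6 d (9.92) stood above vorinostat 24 h (9.60), vorinostat 6 d (9.26) and DMSO 24 h (6.90). The neighbours DMSO 6 d and vorinostat 24 h differed by little more than the spread of the DMSO arrays, and no test was run on this order because it holds the arrays that chose the gene.

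At each time CRABP2 was lower in the group whose arrays were dimmer on average before normalization, so its values were also read before that step. Non-normalized CRABP2 intensities were 1089, 1120 and 1124 with vorinostat and 143, 167 and 235 with DMSO at 24 h. At 6 d they were 448 and 748 with vorinostat and 1205, 1281 and 844 with DMSO. Vorinostat 6 d replicate 2 had a mean array intensity of 283, within the 272 to 302 of the DMSO arrays of 24 h, and its CRABP2 probe read 448. In the intensities normalized by the authors, which keep the background, CRABP2 was at 918, 947 and 972 with vorinostat and at 168, 186 and 308 with DMSO at 24 h. There the log2 difference on the same steps was 2.15 at 24 h and -0.59 at 6 d. Markers of mesenchymal cells were also followed. The 3 of that list that were measured, VIM, LUM and TWIST1, were all called higher with vorinostat at 24 h, as were 15.4% of all genes. None of the 3 was called at 6 d, and their medians were 1.27 at 24 h and -0.30 at 6 d. Their summed normalized intensity was 5574 to 6614 with vorinostat and 2716 to 3294 with DMSO at 24 h. At 6 d it was 3305 to 3591 with vorinostat and 3726 to 4620 with DMSO. Of the 10 neuroblastoma markers 2 were called higher and 2 lower at 24 h (15.4% and 10.2% of all genes), with a median of 0.21. At 6 d 2 of them were called higher and 1 lower (3.18% and 5.87% of all genes), with a median of 0.22. GATA2 was called higher at both times (0.56 and 0.60). DBH was called lower at 24 h (-0.49) and higher at 6 d (1.18), and STMN2 the other way round (0.30 and -0.37). TH was called lower at 24 h (-1.04) and was not called at 6 d (0.63). The parts of array brightness and of these markers in the CRABP2 differences were not tested.

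**Figure D2:**
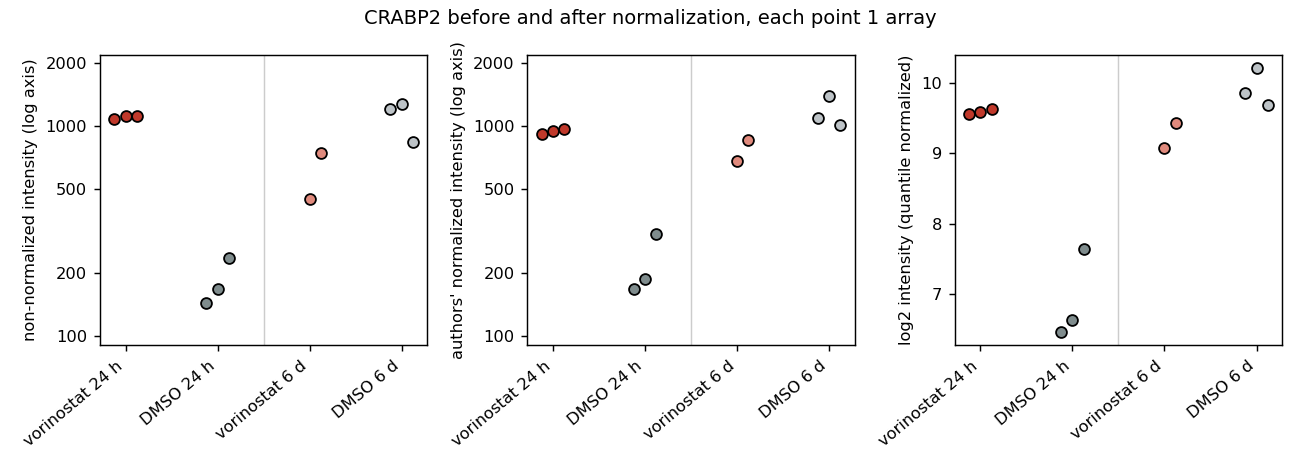
CRABP2 on each array as the non-normalized intensity (log axis), as the intensity normalized by the authors (log axis) and as the log2 intensity used here. In all 3 forms the DMSO arrays of 24 h lie below all others, and at 6 d both vorinostat arrays lie below the DMSO arrays.

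The genes whose pattern over the 11 arrays was most like that of CRABP2 were DDX25 (Pearson r 0.984), TMEM161A (0.967), ENO3 (0.965), PLIN3 (0.964) and TM7SF2 (0.96). Each point of these correlations is an array, with 4 groups, 3 chips and array brightness shared by all genes, and the values are a description. TMEM161A, which codes for a membrane protein, had log2 intensities of 5.58 to 5.88 with vorinostat and 4.43 to 4.71 with DMSO at 24 h. At 6 d it was at 5.29 to 5.49 with vorinostat and 5.71 to 5.89 with DMSO. PLIN3, which codes for a lipid droplet coat protein, was at 9.62 to 9.82 with vorinostat and 8.82 to 9.24 with DMSO at 24 h. At 6 d its range was 9.43 to 9.48 with vorinostat and 9.59 to 9.89 with DMSO. For DDX25, TMEM161A and PLIN3, as for CRABP2, the arrays did not overlap at either time and the order turned round between the times. ENO3 and TM7SF2 had overlapping arrays at 6 d. These genes were picked by their likeness to CRABP2 on the same arrays. A shared order was thus largely fixed by the choice, and nothing is read from it.

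Among the retinoic acid receptors only RARA had a probe above background on all arrays. RARA, the receptor through which retinoic acid acts in many cell types, had log2 intensities of 9.06, 9.20 and 8.88 with vorinostat, against 8.96, 9.21 and 8.93 with DMSO at 24 h. The difference was 0.01 (SE 0.16), and the arrays overlapped. Scaling by array medians put the 24 h difference at 0.75, and the non-normalized intensities were 690 to 882 with vorinostat and 409 to 579 with DMSO. At 6 d RARA was at 8.88 and 8.37 with vorinostat and at 9.35, 8.97 and 8.76 with DMSO. The means were 8.62 ± 0.36 with vorinostat (SD, n = 2) and 9.03 ± 0.30 with DMSO (SD, n = 3). The 6 d difference was -0.41 (SE 0.18, 95% interval -0.79 to -0.02), the arrays overlapped, and the adjusted p in limma was 0.185. Vorinostat replicate 3 carried much of it, since without that array the difference was -0.15 (adjusted p 0.731).

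The RXR are the common partners of the RAR and of many other nuclear receptors. RXRA had log2 intensities of 8.33, 8.24 and 8.09 with vorinostat and 8.37, 8.53 and 8.31 with DMSO at 24 h, with overlapping arrays. The 24 h difference was -0.19 (SE 0.13), and scaling by array medians turned it to 0.55. At 6 d RXRA was at 8.07 and 8.14 with vorinostat and at 8.55, 8.72 and 8.45 with DMSO, and the arrays did not overlap. The means were 8.10 ± 0.05 with vorinostat (SD, n = 2) and 8.57 ± 0.14 with DMSO (SD, n = 3). The 6 d difference of -0.47 (SE 0.14, 95% interval -0.77 to -0.17), 1.38-fold higher in DMSO cells, was the closest of the set to the threshold, with an adjusted p of 0.0531 in limma. Scaling by array medians (-0.82, adjusted p 0.0194 in limma) and one probe per gene (adjusted p 0.0408 in limma) each brought RXRA past the threshold. Without DMSO 6 d replicate 3 the adjusted p was 0.0352, and without vorinostat 6 d replicate 2 it was 0.241.

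RXRB is the sister gene of RXRA. At 24 h its log2 intensities were 6.99, 6.74 and 7.15 with vorinostat and 7.26, 7.27 and 7.45 with DMSO. All vorinostat arrays lay below the DMSO arrays, with a difference of -0.37 (SE 0.15) that scaling by array medians turned to 0.38. At 6 d RXRB was at 7.28 and 7.31 with vorinostat and at 7.53, 7.40 and 7.44 with DMSO. The arrays again did not overlap, the difference was -0.17 (SE 0.17, 95% interval -0.53 to 0.19), and the adjusted p in limma was 0.611.

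**Figure D3:**
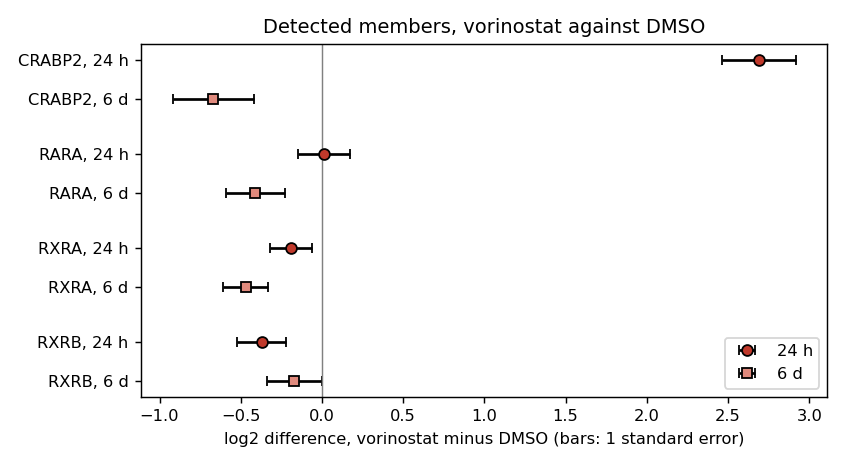
Log2 difference, vorinostat minus DMSO, of the 4 detected members at 24 h (circles) and 6 d (squares), with bars of 1 standard error. CRABP2 at 24 h (2.69) stands far from the other values, which lie between -0.67 and 0.01.

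Of the 4 members tested at 6 d, 0 were called higher and 0 lower, while limma called 3.00% of all probes higher and 4.69% lower. With no adjustment of the limma p-values, 3 members (CRABP2, RARA and RXRA) were below 0.05, all lower, a limit that 12.9% of all probes met on the lower side. The methods name an analysis of variance, which the study ran in R2 on the authors' normalized profiles for autophagy genes. Here an analysis of variance was run on the same log2 values as limma. It called 0 members at 6 d, where it called only 1 probe higher and 1 lower of all 17052. All 4 differences were below 0, as were those of 50.7% of all probes. The vorinostat arrays lay wholly below the DMSO arrays for CRABP2, RXRA and RXRB, whereas this held for 19.3% of all probes. These 4 probes are too few to set against those shares.

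Vorinostat minus DMSO changed from 24 h to 6 d by -3.36 for CRABP2 (SE 0.34), -0.42 for RARA (SE 0.24), -0.28 for RXRA (SE 0.19) and 0.20 for RXRB (SE 0.23) on the log2 scale. These values use the 24 h arrays and are a description. At 24 h each treatment had a chip of its own, so a change in the effect of vorinostat cannot be told apart from chip. Across DMSO cells alone the receptors moved little between the times, with log2 differences of -0.01 for RARA, 0.17 for RXRA and 0.13 for RXRB and overlapping arrays for each. In vorinostat cells RARA was at -0.42 (SE 0.18) and RXRB at 0.33 (SE 0.17) for 6 d minus 24 h.

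The remaining 7 probes stayed near background, so that no level and no fold is given for them. They belong to RARA (2 further probes), RARB (3 probes), RARG and DHRS3. Their non-normalized intensities were 77.5 to 134 over the 11 arrays, where the centre of the background was 97 to 101, and 5 of 77 values were above background. Of the 7 probes 3 were above background on no array.

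RARB, itself a direct target of the receptors through the repeat shown above, read 78.1 to 119 over its 3 probes. One probe of RARB was above background on 2 of the DMSO arrays of 24 h, at 112 to 118 over the 3 DMSO arrays, and on none with vorinostat, at 104 to 119. Those ranges overlap. RARG, a receptor abundant in skin, read 95.5, 130 and 120 with vorinostat and 77.5, 92.0 and 96.6 with DMSO at 24 h. The vorinostat array at 120 was above background by its detection p and the one at 130 was not, so detection did not follow intensity alone. At 6 d RARG was at 91 and 97.9 with vorinostat and at 90.8 to 99.2 with DMSO, with none above background. DHRS3, which turns retinal back to retinol and is induced by retinoic acid, was above background on 1 array only, a DMSO array of 6 d at 134. Its other intensities lay between 94.7 and 127. A transcript that its probe does not capture cannot be told apart from an absent one.

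**Figure D4:**
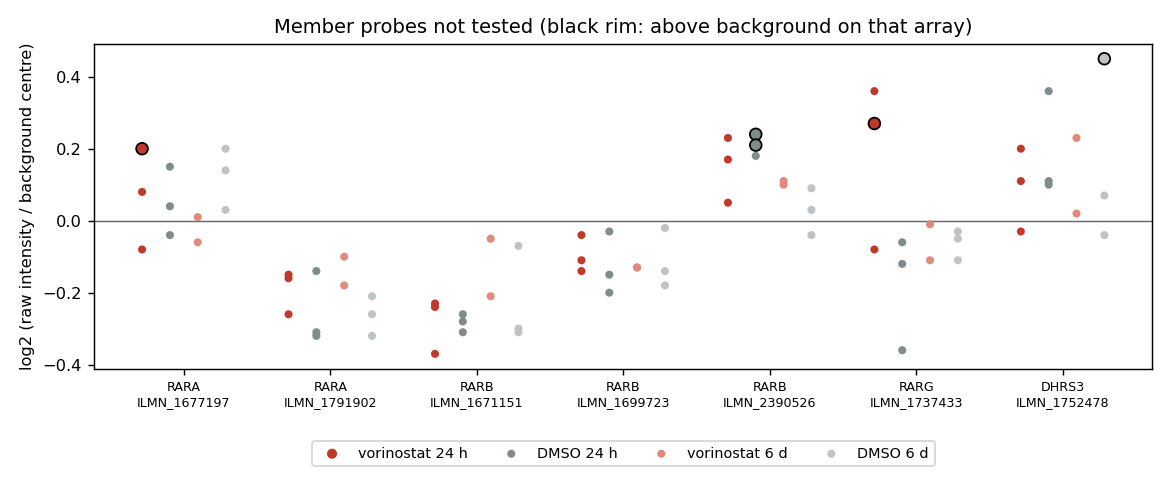
Log2 ratio of the non-normalized intensity to the background centre of the same array, for the 7 member probes not tested, by group, with a black rim where the value was above background by its detection p. Most points lie within 0.4 of the background centre, and 5 of 77 have a rim.

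The other genes of retinoid signalling gave the surroundings of the set. Of 104 genes in 4 lists, 46 were measured. At 24 h limma called 9 of them higher and 4 lower with vorinostat, where 15.4% of all genes were called higher and 10.2% lower. At 6 d it called 3 higher and 4 lower, where 3.18% of all genes were called higher and 5.87% lower. NR1H3 is among the 9 higher at 24 h, and NR1H3 and TGM2 are among the 4 lower at 6 d. Both were dim and entered the test only through groups in which they were high, so nothing is read from their calls. For all list genes, as for the members, chip and treatment share their split at 24 h and cannot be told apart. The analysis of variance run here on the same log2 values called 4 of the list genes higher and 4 lower at 24 h, and none at 6 d. Over all 17052 probes it called 1481 higher and 926 lower at 24 h, and only 1 higher and 1 lower at 6 d. The lack of calls at 6 d is thus not particular to these genes.

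Of genes that supply or break down retinoids, 10 were measured, with a median log2 difference of -0.15 at 24 h and 0.09 at 6 d, beside 0.04 and -0.02 for all genes. At 24 h 3 rose and 3 fell, and at 6 d 2 rose. STRA6, the receptor that takes up vitamin A from its carrier in serum, rose at both times, by 0.42 at 24 h (SE 0.13, adjusted p 0.0242 in limma) and by 0.78 at 6 d (SE 0.14, adjusted p 0.00315 in limma). Its log2 intensities at 6 d averaged 8.28 ± 0.05 with vorinostat (SD, n = 2) and 7.50 ± 0.18 with DMSO (SD, n = 3). The 6 d rise was not called without vorinostat 6 d replicate 2 (adjusted p 0.054 in limma), nor with scaling by array medians (0.43, adjusted p 0.25 in limma). The 24 h call was lost when any of 5 arrays was left out, while the difference stayed at 0.37 to 0.45. DHRS7, a member of the same enzyme family as DHRS3, rose by 1.06 at 24 h (SE 0.11), with means of 10.56 ± 0.06 with vorinostat and 9.50 ± 0.09 with DMSO (SD, n = 3 each). RDH14, a retinol dehydrogenase, rose by 0.29 at 24 h, a call lost without any of 5 arrays.

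FABP5, which carries retinoic acid to another nuclear receptor, PPARD, fell at 24 h and rose at 6 d. Its difference was -0.73 at 24 h (SE 0.11) and 0.53 at 6 d (SE 0.12, adjusted p 0.0147 in limma). At 6 d its log2 intensity was 11.41 ± 0.01 with vorinostat (SD, n = 2) and 10.88 ± 0.20 with DMSO (SD, n = 3). The 6 d call was lost without DMSO 6 d replicate 1 or either vorinostat array (adjusted p 0.0593, 0.121 and 0.0713 in limma). Scaling by array medians ended both FABP5 calls, at -0.10 for 24 h (adjusted p 0.61 in limma) and 0.34 for 6 d (adjusted p 0.248 in limma). DHRS4 and RDH11, both retinoid oxidoreductases, fell by 0.67 and 0.38 at 24 h, whereas scaling by array medians put them at 0.08 and 0.28.

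Among RXR partners and related nuclear receptors 10 were measured, with medians of 0.01 at 24 h and -0.11 at 6 d. NR1H3, the oxysterol receptor LXR alpha that pairs with RXR, was the single gene called, higher at 24 h by 0.94 (SE 0.27, adjusted p 0.0202 in limma) and lower at 6 d (-1.22, SE 0.31, adjusted p 0.0213 in limma). Its probe was dim. At 24 h it was above background on all 3 vorinostat and 1 of 3 DMSO arrays. At 6 d it was above background on 1 of 2 vorinostat and all 3 DMSO arrays. NR1H3 thus entered the test only through groups in which it was high, and nothing is read from its calls. Its size depended on the background step, with 0.31 at 24 h and -0.47 at 6 d in the authors' normalized table. At 24 h the call was lost with scaling by the median of the tested probes (0.47, adjusted p 0.17 in limma) and without DMSO replicate 2, vorinostat replicate 1 or vorinostat replicate 2. At 6 d it was lost without DMSO replicate 1 or 2 or vorinostat replicate 2 (adjusted p 0.101, 0.0527 and 0.281 in limma).

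Of 17 coregulators measured, 4 rose and 1 fell at 24 h, and 1 rose and 2 fell at 6 d, with medians of 0.07 and 0.16. PRAME, which is known to repress RAR signalling in tumour cells, rose at 24 h by 1.17 (SE 0.20) and was lower at 6 d (-0.98, SE 0.22, adjusted p 0.0122 in limma). At 24 h PRAME averaged 7.28 ± 0.26 with vorinostat and 6.11 ± 0.33 with DMSO (SD, n = 3 each). At 6 d its means were 6.54 ± 0.07 with vorinostat (SD, n = 2) and 7.52 ± 0.20 with DMSO (SD, n = 3). The 6 d call of PRAME was lost without DMSO 6 d replicate 1 or either vorinostat array, with adjusted p of 0.0605 to 0.0828 in limma. TBL1XR1, a part of the corepressor complex with HDAC3, rose by 0.56 at 24 h, and TRIM24, a ligand-dependent cofactor, by 0.54. TBL1XR1 lost its call without any of 4 arrays and TRIM24 without any of 3. NRIP1, a corepressor of ligand-bound receptors, was the fourth gene called higher.

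PRMT1, an arginine methyltransferase that acts as a coactivator, fell at 24 h (-0.66, SE 0.11) and rose at 6 d (0.48, SE 0.12, adjusted p 0.0235 in limma), and scaling by array medians put the 24 h value at 0.00. Its 6 d call was lost with that scaling (0.22, adjusted p 0.517 in limma) and when any of 4 arrays of 6 d was left out. SIN3A, the scaffold of a histone deacetylase corepressor complex, fell at 6 d (-0.79, SE 0.14, adjusted p 0.0023 in limma). Its log2 intensities averaged 7.87 ± 0.04 with vorinostat (SD, n = 2) and 8.67 ± 0.18 with DMSO (SD, n = 3).

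Of 10 measured genes that retinoic acid is known to induce, 2 rose at 24 h, and 1 rose and 1 fell at 6 d. The medians were 0.32 at 24 h and -0.24 at 6 d. NAV2, a neuron navigator gene, rose at 24 h by 1.90 (SE 0.32), with means of 7.39 ± 0.66 with vorinostat and 5.49 ± 0.38 with DMSO (SD, n = 3 each). Its other probes gave 0.72 and 0.90, and the authors' normalized table gave 1.07 for the first. STRA6, given above, was the second gene that rose at 24 h and the one that rose at 6 d. TGM2, a transglutaminase long used as a marker of retinoic acid action, fell at 6 d (-1.40, SE 0.29, adjusted p 0.00808 in limma). It was above background on 1 of 2 vorinostat and 3 of 3 DMSO arrays of 6 d. TGM2 was dim and entered the test only through groups in which it was high, so nothing is read from this call. A second TGM2 probe gave -0.15, the authors' normalized table gave -0.55, and without vorinostat 6 d replicate 2 the adjusted p was 0.149 in limma.

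**Figure D5:**
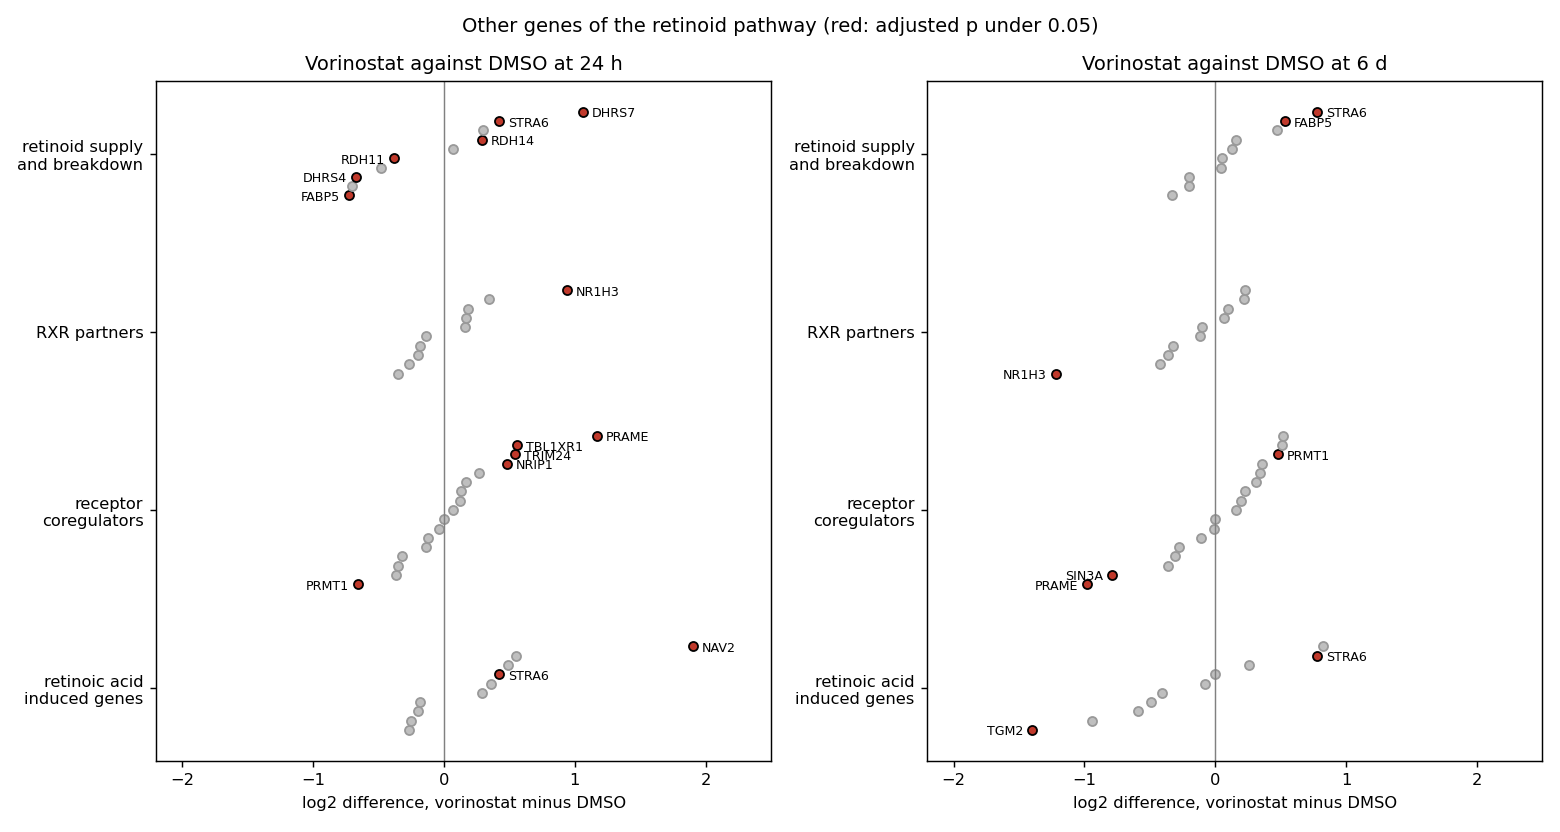
Log2 difference, vorinostat minus DMSO, of 46 measured genes in 4 lists at 24 h (left) and 6 d (right), each point 1 gene by its brightest probe, red with a name where the adjusted p in limma was under 0.05. PRAME lies right of 0 at 24 h and left of 0 at 6 d, and FABP5 and PRMT1 the other way round. NR1H3 and TGM2 were dim and entered the test only through groups in which they were high.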

How the data were processed

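For SK-N-BE(2)-C cells 11 Illumina HT-12 v4 arrays were analysed, grouped and numbered by their titles. An array of vorinostat 6 d with number 1 was not used here. For 1 array of each treatment at 6 d another label field gives a different number, and the titles were kept. The authors deposited non-normalized intensities with a detection p-value per probe, and intensities normalized between arrays with BeadStudio. The tables carry different probe identifiers and were paired by their values (48107 mutual pairs, 2.66% after shuffling).

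Detection needed a p below 0.01 together with a value over the array's background centre (median of probes with p above 0.9), since the deposited p-value is also small far below it. Values were corrected by normexp with detection p-values and an offset of 16, quantile normalized and taken as log2. Probes detected throughout 1 group or more were fitted with limma 3.58.1 (R 4.3.3) by lmFit and trended eBayes, with all 4 groups together. P-values were adjusted by Benjamini-Hochberg over 17052 probes, with a threshold of 0.05. Each list gene was its brightest detected probe. The fit was tested on simulated data. Alternatives were other background steps, offsets and scalings, the authors' normalized table, no filter, 1 probe per gene and a replicate block. Others were the arrays of 1 time only, an analysis of variance on the log2 values used here, and each array left out in turn. The number of arrays limits the precision.

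Members and lists were chosen with earlier results of these data known. Named were all members, up to 3 genes per list, time and direction with the largest change past the threshold, and the 5 genes most like CRABP2. NRIP1 was named in addition, after its values were seen. Same-numbered arrays deviated from their group means with r of 0.0785, 0.163 and 0.235 at 24 h and 0.0871 and 0.0891 at 6 d, so that numbers were not taken as pairs. Gene symbols came from the platform annotation, with 1 gene for 30113 probes, several genes for 8 probes and no gene for 17986 probes. Python 3.11.15 and Matplotlib 3.10.9 made tables and figures.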

Additional observations from a re-analysis of the deposited data

Results flagged for a closer look

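CRABP2 was higher on every vorinostat array than on every DMSO array at 24 h (log2 difference 2.69) and lower on every vorinostat array at 6 d (-0.67), and the difference between the times was not tested. For 15 of the 46 measured list genes, vorinostat minus DMSO differed between the times by limma, with adjustment over all probes. The share of all genes that differed in this contrast is not given here, so the count is not read as a trait of retinoid genes. At 24 h chip and treatment cannot be told apart, and the contrast holds both. Of the 15 genes, 11 are named above by the naming rule. Those 11 are given as the 6 d difference minus the 24 h difference on the log2 scale. The difference was lower at 6 d for NR1H3 (-2.16), PRAME (-2.15), TGM2 (-1.95), DHRS7 (-1.26), SIN3A (-1.06), TBL1XR1 (-0.87) and RDH14 (-0.63). It was higher at 6 d for FABP5 (1.26), PRMT1 (1.14), DHRS4 (0.72) and RDH11 (0.51). Their adjusted p in limma ranged from 4.9e-05 for DHRS7 to 0.0216 for TBL1XR1. The other 4 genes (ALDH1A2, CARM1, CREBBP and MEIS2, named after their values were seen) reached up to 0.0477 for ALDH1A2. NR1H3, TGM2 and ALDH1A2 were dim and entered the test only through groups in which they were high, so nothing is read from their contrasts. NR1H3 was above background on 1 of 3 DMSO arrays at 24 h and 1 of 2 vorinostat arrays at 6 d. For TGM2 these were 2 of 3 and 1 of 2, and ALDH1A2 was above background on 0 of 3 DMSO arrays of 6 d. Mean array intensity before normalization also turned round between the times, with vorinostat arrays brighter at 24 h (401 to 413, against 272 to 302 with DMSO) and mostly dimmer at 6 d (283 and 338, against 323 to 383 with DMSO). Its part in these differences was not tested.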

How the results depend on the processing

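Of the 4 members, CRABP2 kept its direction at both times under 21 alternatives, with 24 h differences of 2.15 to 3.43 and 6 d differences of -0.98 to -0.48 (adjusted p 0.00791 to 0.496). At 6 d RXRA ranged from -0.82 to -0.37, RARA from -0.74 to -0.15 and RXRB from -0.53 to -0.13. Members called lower at 6 d numbered 3 with scaling by array medians, 1 with one probe per gene (RXRA, adjusted p 0.0408 over fewer tests) and 1 with the replicate number as a block (RXRA, 0.0473), against 0 as reported, and 0 to 1 with an array left out. At 24 h no call is given for the members, and scaling by array medians put their differences at 3.43 (CRABP2), 0.75 (RARA), 0.55 (RXRA) and 0.38 (RXRB). List genes called higher at 6 d (3 as reported) numbered 0 with scaling by array medians. They numbered 1 with only the arrays of that time and 0 with the analysis of variance run here. List genes called lower at 6 d (4) numbered 8 with scaling by array medians and 0 with the analysis of variance. List genes called higher at 24 h (9) numbered 27 with scaling by array medians, 3 with no filter on dim probes and 4 with the analysis of variance, and those called lower (4) numbered 0 with scaling by array medians. With an array left out, list genes called higher at 6 d ranged from 0 (without vorinostat 6 d replicate 2) to 4 and lower from 1 (without vorinostat 6 d replicate 2) to 6, and at 24 h higher from 3 (without vorinostat 24 h replicate 1) to 9 and lower from 4 to 5. At 24 h scaling by array medians put DHRS4 at 0.08 and RDH11 at 0.28, on the other side of 0, and left no difference for PRMT1 (0.00) and a FABP5 difference of -0.10 that was not called.

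Scaling by array medians moved the median of all tested probes to 0.61 at 24 h and -0.28 at 6 d, against 0.03 and -0.01, and called 10428 probes higher and 126 lower at 24 h, and 78 and 1795 at 6 d. Scaling by the median of the tested probes, chosen after seeing the data, called 1580 higher and 3225 lower at 24 h and 869 and 634 at 6 d. As reported these were 2301 and 1604 at 24 h and 512 and 800 at 6 d. That scaling changed no member's call at 6 d. With the replicate block the probes called were 2562 and 1843 at 24 h and 566 and 875 at 6 d. The analysis of variance called 1 probe higher and 1 lower at 6 d. Members near background could not be followed at this signal, and the number of arrays limits the rest.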
